A study of Mus musculus with 74 samples.

Results

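The sterol sensing, transport and efflux genes described here are 9 listed genes, Srebf1, Srebf2, Scap, Insig1, Insig2, Stard4, Abca1, Abcg1 and Nr1h2, of the 53379 genes in the count files. They were chosen by name and not by any measured value, and the working label's "uptake" is not represented, since none of the 9 encodes a lipoprotein receptor. RNA was sequenced from mouse dorsal root ganglia (DRG), the clusters of sensory neurons and their glia beside the spinal cord, at lumbar level L4. Whole DRG came from C57BL/6 wild type females aged 10 to 12 weeks, 4 uninjured and 4 taken 1d after spinal cord injury (SCI, a dorsal hemisection of the thoracic cord), with 1 library per mouse. Dorsal column sensory neurons, whose axons ascend the spinal cord, were FACS-sorted as YFP+ cells from L4 DRG of Thy1YFP16 females aged 10 to 20 weeks, in which the Thy1 promoter drives YFP in a subset of neurons. Every sorted group carried this transgene and was dissociated and sorted in the same way. They were 6 naive mice, and 4 mice each at 1d and 3d after SCI and at 1d and 3d after sciatic nerve injury (SNI, a nerve crush), each mouse giving 3 wells of about 100 cells, which makes 66 wells from 22 mice. Replicates were separate mice, and the wells of a mouse were summed before any test.

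These genes form the switch by which a cell balances cholesterol. Srebf2 and Srebf1 encode SREBP2 and SREBP1, membrane-bound transcription factors for sterol and fatty acid synthesis genes. When membrane sterol is low, the escort protein SCAP carries them from the endoplasmic reticulum to the Golgi, where they are cut free to enter the nucleus; when sterol is high, the INSIG proteins hold SCAP back. Stard4 encodes a soluble carrier that moves cholesterol between membranes and is itself an SREBP target, as is Insig1. Nr1h2 encodes LXRβ, a nuclear receptor for oxysterols, and Abca1, Abcg1 and Srebf1 are among the best known LXR targets. ABCA1 and ABCG1 export cholesterol from the cell to acceptor particles. In the nervous system sterol is made locally, and glia supply and take up much of it around neurons and myelin.

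In the GRCm38 annotation (GENCODE vM21), whose coordinates follow, the members lie on 9 different chromosomes. The factor genes are Srebf1 (ENSMUSG00000020538.15, chr11:60199089-60222581, minus strand) and Srebf2 (ENSMUSG00000022463.7, chr15:82147181-82205379, plus strand). The sensor genes are Scap (ENSMUSG00000032485.14, chr9:110333288-110384950, plus), Insig1 (ENSMUSG00000045294.11, chr5:28071363-28078662, plus) and Insig2 (ENSMUSG00000003721.14, chr1:121304353-121332589, minus). The carrier gene is Stard4 (ENSMUSG00000024378.9). The efflux and receptor genes are Abca1 (ENSMUSG00000015243.4, chr4:53030787-53159895, minus), Abcg1 (ENSMUSG00000024030.6, chr17:31057675-31117988, plus) and Nr1h2 (ENSMUSG00000060601.13, chr7:44549616-44553951, minus). Exons of Scap overlap those of the antisense gene 5830462I19Rik by 985 bases and exons of Srebf1 overlap Rai1 by 109 bases, so reads there cannot be assigned with certainty.

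The 250 bases before the start sites given by RefSeq (GRCm38.p6) are shown for Abca1, the member that moved most clearly after nerve injury, and for the Srebf1 start site at 60210471, because they are the 2 of 12 searched promoters, belonging to 7 members with Stard4 and Abcg1 not among them, that held the letters of a DR4 element, the kind of site to which LXR binds. The letters searched on both strands were GGTNA, 5 bases of any kind and GGTNA again, written knowing that the Abca1 promoter holds such an element, and 204 of 32851 promoters (0.6%) held them. The first sequence is chr4:53159896-53160145 and the second chr11:60210472-60210721, both read 5′ to 3′ on the minus strand of the genome, which is the strand of the genes. Capitals mark the DR4 letters, the E-box CACGTG and the CCAAT box (ATTGG on the opposite strand).
Abca1: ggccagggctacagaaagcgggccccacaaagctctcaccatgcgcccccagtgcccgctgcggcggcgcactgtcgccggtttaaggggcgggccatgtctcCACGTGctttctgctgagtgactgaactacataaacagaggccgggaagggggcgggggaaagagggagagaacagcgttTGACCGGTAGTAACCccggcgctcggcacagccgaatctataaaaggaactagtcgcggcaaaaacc
Srebf1: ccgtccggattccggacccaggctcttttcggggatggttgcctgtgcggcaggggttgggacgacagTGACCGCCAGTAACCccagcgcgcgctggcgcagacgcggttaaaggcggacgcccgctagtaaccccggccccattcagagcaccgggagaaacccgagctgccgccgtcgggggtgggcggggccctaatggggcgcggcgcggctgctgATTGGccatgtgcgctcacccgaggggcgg
The DR4 letters ran from 67 to 53 bases before the Abca1 start and from 182 to 168 bases before this Srebf1 start, on the opposite strand in both. The sterol response element letters TCACNCCAC were in 0 of these 12 promoters and in 346 of all 32851 (1.1%). The E-box was in the promoters of Abca1, Insig1 and Scap (6.0% of all), the CCAAT box in those of Insig1, Insig2, Srebf1 and Srebf2 (33.8%) and the GC box GGGCGG in those of Abca1, Insig1, Insig2, Scap, Srebf1 and Srebf2 (32.7%). A match in these letters is a description of the sequence only.

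Reads assigned to genes numbered 21959030 to 44493319 per whole DRG library and 30518187 to 83599972 per sorted mouse, with single wells between 1494217 and 49015375. Levels per mouse are given as CPM, the reads of a gene at a common total of reads on the genes that passed the filter, after TMM scaling between mice, which compare samples but not genes. Values of single wells are CPM of the reads on all genes in that well, with no such scaling, so values of wells and of mice are not on one scale. All 9 members passed the filters on low counts in both data sets. The sorted wells did not all match their label. In 20 of 66 wells, in 14 of the 22 mice, the 9 markers of satellite glia and Schwann cells took more of the reads than the 8 neuronal markers. In these wells, called glia-rich wells, the glial markers took 3.26 to 14.4% and the neuronal markers 0.008 to 1.72% (median 0.045%). In the other 46 wells the neuronal markers took 1.08 to 3.89% (median 3.23%) and the glial markers at most 1.30%. SNI 3d mouse 3 and SCI 3d mouse 3 had only glia-rich wells. The neuronal markers still took 1.72, 1.46 and 0.0117% of the reads in the wells of SNI 3d mouse 3. In those of SCI 3d mouse 3 they took 1.07, 0.0076 and 0.027%. In SCI 3d mouse 3 the fibroblast markers took 4.34, 5.80 and 2.98% of the reads, more than the glial markers (4.16, 3.26 and 4.72%) in 2 of its 3 wells, and the macrophage markers took 1.46% in the third. The comparisons of sorted neurons were also fitted without glia-rich wells, which leaves 3 mice in each of these 2 groups.

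The median levels of most members were apart between the kinds of well. Among transporters, Abcg1 had a median of 766 CPM in glia-rich wells and 241 CPM in the others, and Abca1 78.5 and 46.4 CPM. Stard4 went the other way, with 0.377 CPM in glia-rich wells and 34.3 CPM in the others, as did Nr1h2 (0.386 and 19.3 CPM), Scap (0.574 and 10.8 CPM) and Insig2 (16.6 and 68.0 CPM). Insig1 had 187 CPM in glia-rich wells and 100.5 CPM in the others, while Srebf1 (4.97 and 3.93 CPM) and Srebf2 (17.0 and 14.7 CPM) had like medians. These medians mix wells of all groups and were not tested. Within groups, Abcg1 and Insig1 stayed higher and Insig2 and Nr1h2 lower in glia-rich wells. The Abca1 median was lower there in naive mice (17.7 and 20.6 CPM) and at SNI 3d (103 and 198 CPM). It was also lower at SCI 1d (1.28 and 24.04 CPM), and higher at SNI 1d and SCI 3d. Scap was higher in glia-rich wells at SNI 1d (30.4 and 10.3 CPM) and SCI 1d (28.005 and 9.42 CPM). Stard4 was higher at SNI 3d (81.6 and 35.1 CPM). In its other groups each was lower.

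Without injury, the order of the members differed between whole DRG and sorted neurons. On a per-length scale (RPKM, the CPM of the reads on all genes of a mouse, without TMM scaling, divided by the exon length in kilobases), Insig1 was the highest member in uninjured whole DRG at 57.1 RPKM (range 55.7 to 58.3, n = 4). Srebf2 followed at 27.7 (26.6 to 30.1) and Stard4 at 21.4 (19.9 to 23.1), and the ranges of these 3 did not overlap. Srebf1 at 18.6 RPKM (16.4 to 21.2) overlapped Stard4 and, narrowly, Abca1 at 15.5 (14.5 to 16.6), which overlapped Abcg1 at 14.2 (13.2 to 15.4). Scap at 11.5 (11.0 to 12.7) and Nr1h2 at 11.0 (9.78 to 11.7) overlapped, and Insig2 was lowest at 7.63 (6.54 to 8.15), below every other member in every mouse.

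In naive sorted neurons Abcg1 was the highest member by mean at 73.5 RPKM (35.3 to 107.9, n = 6), with a range that overlapped that of Insig1 at 47.1 (31.4 to 62.3). Insig2 came next at 18.1 RPKM (10.5 to 23.4) and Stard4 at 7.59 (2.79 to 13.5), with some overlap. Nr1h2 at 4.91 (0.204 to 9.82), Abca1 at 4.19 (1.598 to 8.41) and Srebf2 at 2.58 (0.721 to 5.03) could not be separated by their ranges. Scap at 1.25 (0.0165 to 2.70) and Srebf1 at 0.945 (0.0218 to 1.595) were lowest. The order of the means was the same without glia-rich wells, with Abcg1 at 61.8, Insig1 at 39.0, Insig2 at 17.6 and Stard4 at 11.6 RPKM. Whole DRG and sorted cells were made into libraries with different kits, so a difference in level between them cannot be told apart from the kit and was not tested.

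**Figure D1:**
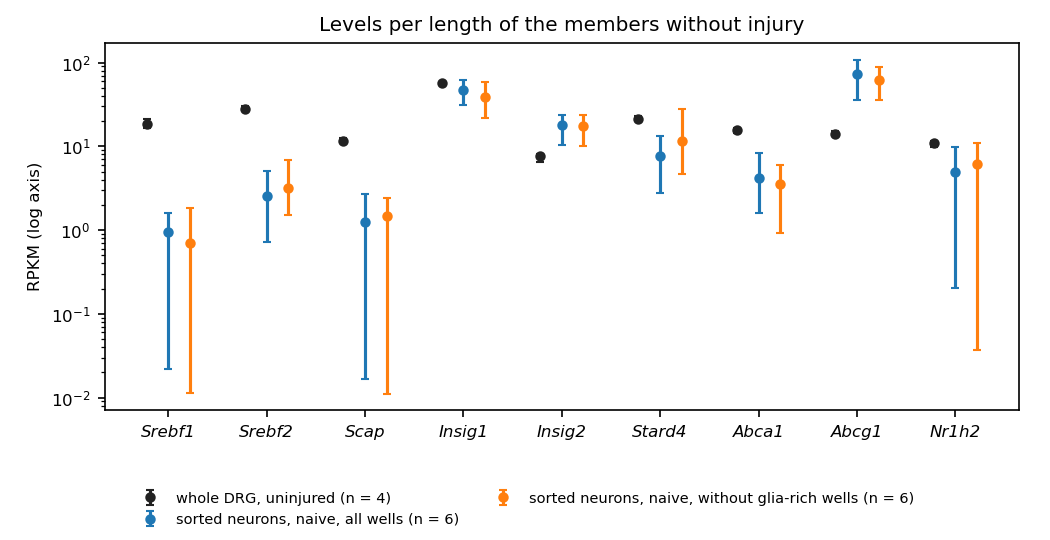
Levels per length (RPKM, log axis) of the 9 members without injury, as the mean with bars from the lowest to the highest mouse, for uninjured whole DRG (n = 4) and naive sorted neurons with all wells and without glia-rich wells (n = 6 each). Insig1 leads in whole DRG at 57.1 RPKM and Abcg1 in sorted neurons at 73.5 RPKM, and the ranges of Scap, Nr1h2 and Srebf1 are widest in the sorted neurons.

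The first comparison asked how whole DRG, neurons and other cells together, responded 1d after SCI. Stard4, the cholesterol carrier, was the only member that was differentially expressed (DE, an adjusted p under 0.1 by edgeR's quasi-likelihood test over 17616 genes), and it fell. Its level was 114, 119.9, 117 and 130.2 CPM in the 4 uninjured mice and 91.1, 72.7, 94.8 and 87.1 CPM in the 4 SCI mice. The groups did not overlap, and the fitted fold was 0.718 (log2 fold change -0.48, SE 0.0875, adjusted p = 0.0350). In bulk tissue, fewer cells of a type and less RNA per cell cannot be told apart. Over all genes 2.32% were DE, 243 higher and 165 lower, and 1 of the 9 members was.

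Insig1, which retains the SREBP escort when sterol is plentiful, was also lower in every SCI mouse, but the change did not pass the test. It measured 179.9, 181, 171 and 180.3 CPM without injury and 149, 145, 129 and 167 CPM after SCI (log2 fold change -0.27, SE 0.0787, adjusted p = 0.149). Abcg1 likewise measured 116, 96.6, 102 and 104 CPM without injury and 89.7, 92.5, 92.9 and 85.0 CPM after SCI (-0.21, SE 0.0700, adjusted p = 0.193). So 3 of 9 members had groups that did not overlap, all lower after SCI, where 11% of all genes tested had groups that did not overlap in either direction.

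The SREBP factor genes had lower means with overlapping groups. Srebf2 measured 222, 191, 193 and 197 CPM without injury and 168, 160.2, 205 and 164 CPM after SCI, where mouse 3 lay within the uninjured range (log2 fold change -0.20, SE 0.0895, adjusted p = 0.333). Srebf1 measured 92.9 to 123 CPM without injury and 79.7 to 105 CPM after SCI (-0.23, SE 0.109, adjusted p = 0.362). The other 4 members differed little. Abca1 measured 151 to 171 CPM and 149 to 156 CPM (-0.09, SE 0.0594, adjusted p = 0.515), with a 95% interval of the log2 difference from -0.21 to 0.02. For Scap, Insig2 and Nr1h2 the log2 fold changes were 0.07, 0.02 and 0.08, with intervals from -0.12 to 0.25, -0.13 to 0.18 and -0.12 to 0.28. Over the 9 members the median log2 fold change was -0.20 and 6 were negative, beside a median of 0.01 and 46.9% negative over all genes.

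**Figure D2:**
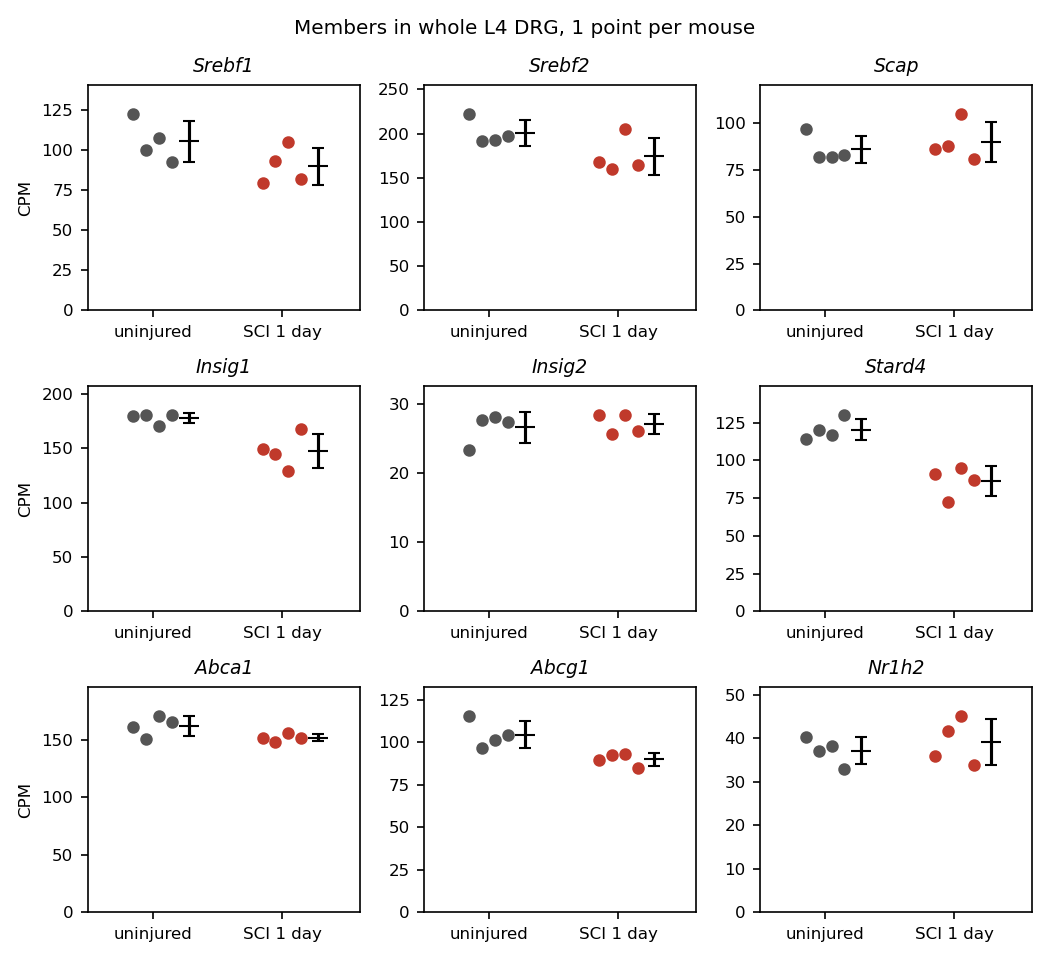
Level of each member (CPM, linear axes from 0) in whole DRG, 1 point per mouse, 4 uninjured and 4 SCI 1d, with the mean and SD of each group beside them. Stard4, Insig1 and Abcg1 are the 3 members whose groups do not overlap, and the SCI points lie below the uninjured ones in all 3.

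Blood moved with the injury in these libraries. The summed level of 5 red blood cell genes was 13.4 to 21.3 CPM without injury and 20.7 to 88.6 CPM after SCI, 4 of the 5 being DE and higher, and the 8 macrophage markers summed to 60.2 to 82.0 and 87.1 to 105.4 CPM, with all 8 positive and 1 of 8 DE. The 5 neutrophil markers were all positive (median log2 fold change 0.715, 0 DE), 6 of the 9 glial markers were positive with 1 DE and higher, 2 of 5 fibroblast markers were positive with 1 of the others DE and lower, and 2 of 4 endothelial and 3 of 8 neuronal markers were positive with 0 DE. The part of these cells in the results was not tested. Over the 8 libraries the red blood cell level correlated with injury (r = 0.746), so a fit that holds both cannot tell them apart. With the red blood cell level as a covariate, the Stard4 change was -0.39 (SE 0.138) and no longer passed the test (adjusted p = 0.468), and that of Insig1 was -0.11. Leaving out 1 mouse at a time kept Stard4 between -0.52 and -0.40, with an adjusted p from 0.0280 to 0.120; it was not DE without uninjured mouse 2 (0.120), 3 (0.114) or 4 (0.113). By DESeq2 the adjusted p was 0.000237 for Stard4 and 0.0646 for Insig1.

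The other genes of sterol handling in whole DRG were read from fixed lists. Of 20 cholesterol synthesis enzymes, the main SREBP2 targets, all 20 had negative fold changes (median -0.34, range -0.53 to -0.09) and 7 fell, beside 46.9% negative and 2.32% DE among all genes. Hmgcs1, an early enzyme of the pathway, fell from a mean of 907 to 645 CPM (log2 fold change -0.49, SE 0.0838, adjusted p = 0.0283). Mvk, mevalonate kinase, fell by 0.41 on the log2 scale (SE 0.0780, adjusted p = 0.0399). Hsd17b7, Sc5d, Sqle and Mvd, further enzymes of the same route, also fell. With the red blood cell level as a covariate all 20 were still negative (median -0.19, 5 with an unadjusted p under 0.05), but 0 of 20 were DE by edgeR, of 23 DE genes in all.

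No other list held a DE gene in whole DRG. Among 11 genes of SREBP processing and sensor turnover, 5 were positive and 6 negative (median -0.00), with Rnf145, a ubiquitin ligase, at -0.21 (adjusted p = 0.236), Fbxw7 at -0.17 (0.337) and Erlin1 at 0.19 (0.501). Among 10 LXR partners and targets, 5 were positive and 5 negative, with Lpcat3, a phospholipid remodelling enzyme induced by LXR, at -0.27 (adjusted p = 0.220) and Rxrb at -0.08 (0.701). The 10 sterol transfer proteins were also 5 and 5, led by Osbpl9 at -0.14 (0.329), Gramd1b at -0.16 (0.382) and Osbpl2 at -0.09 (0.570). The Stard4 change was therefore not matched by a DE call among these other carriers.

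The remaining lists were short. Of 7 genes for lipoprotein uptake and lysosomal release 3 were positive and 4 negative, with the smallest adjusted p for Lipa, the lysosomal lipase, at -0.24 (0.260), then the receptor Lrp1 at 0.43 (0.331) and Vldlr at 0.12 (0.518). For cholesterol esters, Nceh1 was at -0.13 (0.342), Soat2 at 0.37 (0.433) and Soat1 at -0.10 (0.556). Among 5 oxysterol forming enzymes, whose products activate LXR, Cyp27a1 was at 0.31 (0.372), Ch25h at 0.46 (0.516) and Cyp39a1 at 0.23 (0.645).

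In sorted neurons the question was how the same neurons responded to a peripheral and to a central injury. Each injured group was compared with the same 6 naive mice, so the 4 comparisons share controls and their values are set side by side only. The test was edgeR's quasi-likelihood test over 23507 genes, with 2 factors of unwanted variation estimated by RUVr (from the residuals of a fit that already holds the groups). It called 0.519% of genes DE for SNI 1d, 0.442% for SNI 3d, 0.0468% for SCI 1d and 0.051% for SCI 3d. Without glia-rich wells it called 6.47% of 22620 genes for SNI 1d and 4.99% for SNI 3d, and the median fold change over all genes then moved to 0.35 and 0.33 on the log2 scale, from 0.15 and -0.01 with all wells.

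Abca1, the exporter that loads lipid-poor acceptors, was the only member DE in sorted neurons with all wells, and it rose at 3d after SNI. Naive mice had 20.6, 38.1 and 78.6 CPM as the lowest, median and highest. The 4 SNI 1d mice had 119.9, 143, 186 and 82.4 CPM, and the 4 SNI 3d mice 239, 151, 239.9 and 198 CPM. Every SNI mouse at both times was above every naive mouse.

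The fitted fold for Abca1 was 3.07 at SNI 1d (log2 fold change 1.62, SE 0.511, adjusted p = 0.190, not DE) and 4.71 at SNI 3d (2.23, SE 0.515, adjusted p = 0.0942). Abca1 was the 1 member of 9 whose groups did not overlap with naive in each of these comparisons, where 1.71% of genes did not overlap at SNI 1d and 1.27% at SNI 3d. Neither SCI change was DE. The SCI 1d mice had 64.3, 14.0, 8.38 and 17.7 CPM (-0.74, SE 0.531, adjusted p = 0.660) and the SCI 3d mice 32.2, 30.6, 110.4 and 73.6 CPM (0.43, SE 0.527, adjusted p = 0.845), and both groups overlapped naive.

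Without glia-rich wells the fitted standard errors of both SNI changes of Abca1 were smaller, and both changes passed the test. Naive mice then spanned 12.9 to 60.2 CPM, SNI 1d mice were at 112, 152, 174 and 93.8 CPM, and the 3 remaining SNI 3d mice at 289, 163 and 198 CPM. Again no SNI mouse overlapped naive. The log2 fold changes were 1.87 (SE 0.385, adjusted p = 0.0188) at 1d and 2.57 (SE 0.413, adjusted p = 0.0103) at 3d, larger than the shift of the median gene of 0.35 and 0.33.

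By single wells that were not glia-rich, Abca1 had a median of 20.6 CPM in naive mice (12 wells, 0.537 to 186), 133 CPM at SNI 1d (9 wells, 8.91 to 266) and 198 CPM at SNI 3d (8 wells, 31.8 to 416.5). It was 24.04 CPM at SCI 1d and 33.3 CPM at SCI 3d. The well ranges overlapped although the sums per mouse did not.

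The Abca1 call at SNI 3d with all wells was close to the threshold. Leaving out 1 mouse at a time kept the log2 fold change between 2.07 and 2.49, and the adjusted p ran from 0.0521 to 0.223. The call was lost without naive mice 2, 3 or 4 or SNI 3d mice 1, 2 or 4, and held without naive mice 1, 5 or 6 or SNI 3d mouse 3. Without RUVr factors the fold change was 2.27 with an adjusted p of 0.305, and by DESeq2 the adjusted p was 0.00121.

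Macrophages also make Abca1, so their markers were read beside it. The 8 markers summed to 0.404 to 1048 CPM in naive mice (median 8.10), 0.141 to 517 at SNI 1d (14.9), 0.721 to 133 at SNI 3d (8.62), 0.779 to 3.40 at SCI 1d and 1.86 to 5274 at SCI 3d. Of the 8 markers 7 were positive at SNI 1d against naive (median log2 fold change 3.37, 4 with an unadjusted p under 0.05), 4 at SNI 3d (1.90, 1 under 0.05), 3 at SCI 1d (-2.54, 1 under 0.05) and 7 at SCI 3d (1.01), with 0 DE in each. Without glia-rich wells 5 of the 8 markers passed the filter, of which 5 were positive at SNI 1d (median 4.29, 2 under 0.05) and 3 at SNI 3d (1.01, 1 under 0.05), again with 0 DE by edgeR. Their part in the Abca1 result was not tested.

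Among wells that were not glia-rich, those with few macrophage reads were also read alone, with limits chosen after the values were seen. Where the markers summed to under 1 CPM, Abca1 was at 7.40 to 92.8 CPM in 3 wells of 2 naive mice, at 96.4 and 124.8 CPM in 2 wells of 1 SNI 1d mouse and at 260.5 to 416.5 CPM in 3 wells of 2 SNI 3d mice. Where they summed to under 10 CPM, it was at 7.40 to 92.8 CPM in 9 wells of 6 naive mice, at 96.4 to 197 CPM in 5 wells of 4 SNI 1d mice and at 58.7 to 416.5 CPM in 6 wells of 3 SNI 3d mice. The SNI 1d wells lay above the naive wells under both limits, while the SNI 3d wells overlapped the naive wells under the wider one. The separation at SNI 1d depends on the limits. Left out by them were naive mouse 4 well c (markers at 10.65 CPM, Abca1 at 186 CPM) and SNI 1d mouse 4 well b (45.2 and 8.91 CPM). Wells of a mouse are not replicates, and the part of macrophages was not tested here either.

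The samples came in 2 sets by the form of their titles, of which the second holds naive mice 5 and 6 and mice 3 and 4 of each injury group. Within the first and the second set the mean difference of Abca1 from naive on the log2(CPM + 1) scale was 1.45 and 2.25 at SNI 1d and 1.98 and 3.06 at SNI 3d. It had the same direction in both sets, and also without glia-rich wells (1.84 and 2.15 at 1d, 2.57 and 2.79 at 3d). With the set as a term in the fit, the log2 fold change at SNI 3d was 2.37 (adjusted p = 0.0952).

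Abcg1, the second exporter, which passes cholesterol to mature high density particles, went the other way after SNI in the wells that were not glia-rich. With all wells, naive mice had 236, 682 and 812 CPM as the lowest, median and highest. SNI 1d mice had 276, 310.2, 293 and 41.5 CPM, and SNI 3d mice 49.9, 173, 1462 and 136 CPM. All but 1 of the 8 SNI mice were below the naive median, and the exception, SNI 3d mouse 3, had only glia-rich wells. With all wells the change was -1.24 at SNI 1d (SE 0.559, adjusted p = 0.332) and -1.31 at SNI 3d (SE 0.578, adjusted p = 0.336), neither DE.

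Without glia-rich wells, Abcg1 fell at both times after SNI. Naive mice spanned 250.4 to 702 CPM, SNI 1d mice were at 183, 211, 78.1 and 47.3 CPM, and SNI 3d mice at 33.5, 186 and 136 CPM. Every SNI mouse was below every naive mouse. The log2 fold change was -1.92 at 1d (SE 0.535, adjusted p = 0.0650) and -2.04 at 3d (SE 0.598, adjusted p = 0.0877). So Abca1 and Abcg1 were the 2 of 9 members DE in these wells, where 6.47% and 4.99% of all genes were, and the 2 of 9 whose groups did not overlap, where 2.33% of genes did not at SNI 1d and 4.98% at SNI 3d.

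Abcg1 was not DE after SCI. With all wells SCI 1d mice had 404, 505, 464 and 119.5 CPM (-0.56, adjusted p = 0.774) and SCI 3d mice 265, 353, 544 and 194 CPM (-0.74, adjusted p = 0.684). Both groups overlapped naive. Within the first and the second set the Abcg1 difference from naive without glia-rich wells was -1.07 and -3.09 at SNI 1d and -2.37 and -1.94 at SNI 3d on the log2(CPM + 1) scale.

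**Figure D3:**
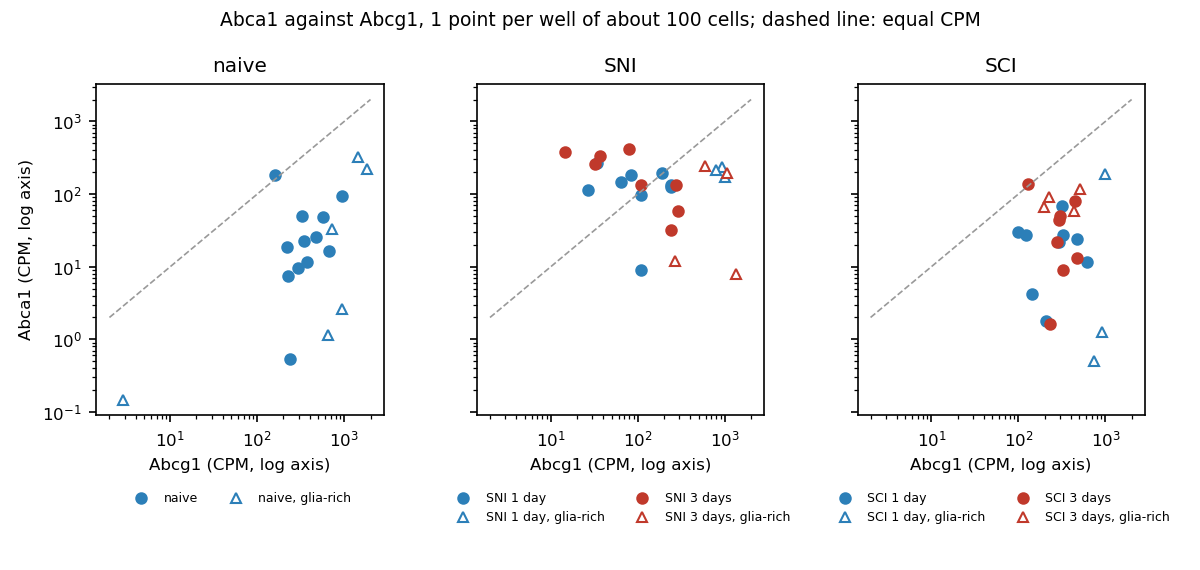
Abca1 against Abcg1 (both CPM, log axes), 1 point per well, in naive, SNI and SCI mice, with filled circles for wells that are not glia-rich and open triangles for glia-rich wells; the dashed line marks equal CPM, which is not an equal level per length. By their medians, SNI wells that are not glia-rich lie higher and further left than naive ones, while the wells overlap on both axes. Their Abca1 medians are 133 CPM at 1d and 198 CPM at 3d beside 20.6 CPM in naive mice. Those of Abcg1 are 108 and 94.2 CPM beside 335 CPM.

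Stard4, which was DE and lower in whole DRG at SCI 1d, was also low in sorted neurons at SCI 1d, without passing the test. Naive mice had 19.3, 32.7 and 94.5 CPM as the lowest, median and highest, and SCI 1d mice 12.8, 13.5, 7.49 and 21.96 CPM. Of the 4 SCI 1d mice 3 were below every naive mouse and mouse 4 was within the naive range. The log2 fold change was -1.57 (SE 0.606, unadjusted p = 0.0179, adjusted p = 0.361, edgeR), with a 95% interval from -2.75 to -0.38.

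Without glia-rich wells, in which the Stard4 median was 0.377 CPM, naive mice spanned 25.6 to 188 CPM and SCI 1d mice were at 10.4, 17.6, 10.5 and 23.4 CPM, with no overlap. Stard4 was the 1 member of 9 whose groups did not overlap there, where 0.743% of genes did not, and the change was -1.80 (SE 0.372, adjusted p = 0.143). With all wells 0 of 9 members had groups apart at SCI 1d or SCI 3d, where 0.574% and 0.332% of genes did. It was negative within both sets, at -1.41 and -1.66 on the log2(CPM + 1) scale. At SCI 3d Stard4 measured 14.7, 39.3, 2.88 and 28.8 CPM (-0.93, adjusted p = 0.620), the lowest value being that of mouse 3, which had only glia-rich wells. After SNI it lay within the naive range, at 30.4, 28.8, 67.8 and 35.8 CPM at 1d (-0.03) and 53.4, 24.04, 89.6 and 55.1 CPM at 3d (0.51).

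**Figure D4:**
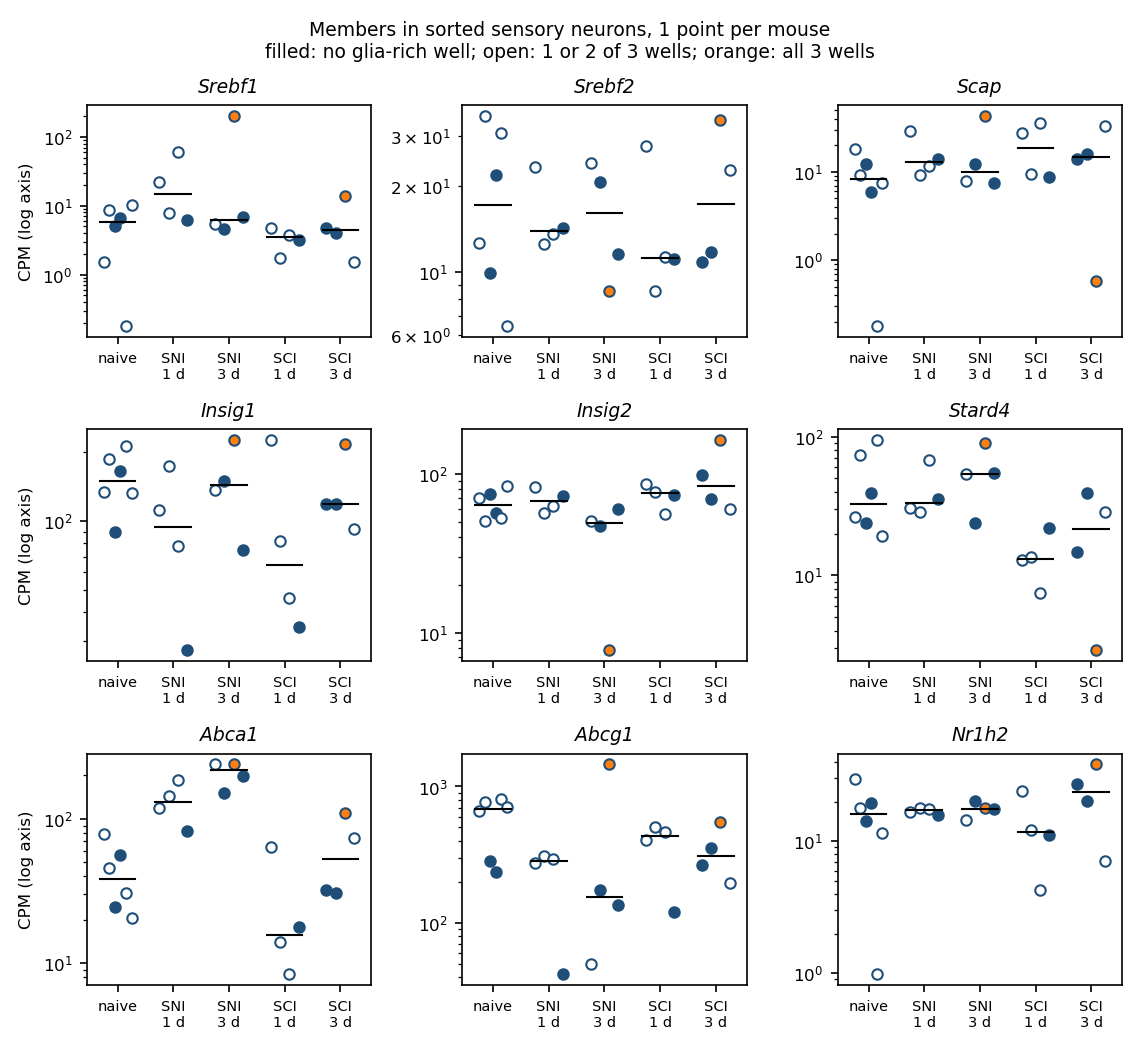
Level of each member (CPM, log axes) in the 22 sorted mice by group, 1 point per mouse, filled where no well was glia-rich, open where 1 or 2 of 3 wells were and orange where all 3 were; lines mark group medians. Abca1 is above all naive mice in every SNI mouse, and the highest Srebf1 value, 201 CPM, is the orange SNI 3d mouse.

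Srebf1, the SREBP gene that LXR also induces, had high values after SNI that came from glia-rich wells. Naive mice had 0.176, 5.84 and 10.4 CPM as the lowest, median and highest, SNI 1d mice 22.1, 7.96, 61.3 and 6.29 CPM and SNI 3d mice 5.50, 4.56, 201 and 6.84 CPM. The groups overlapped, and the 3 highest mice owed their level to glia-rich wells at 128 CPM (SNI 1d mouse 1), 188 CPM (SNI 1d mouse 3) and 449 CPM (SNI 3d mouse 3). The log2 fold change was 2.59 at SNI 1d (SE 0.727, adjusted p = 0.151) and 1.64 at SNI 3d (SE 0.727, adjusted p = 0.342).

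Without glia-rich wells Srebf1 was at 4.22, 10.3, 6.42 and 7.17 CPM at SNI 1d (1.66, SE 0.694, adjusted p = 0.180) and at 6.57, 4.91 and 6.85 CPM at SNI 3d. Naive mice then spanned 0.0866 to 10.2 CPM, so the groups overlapped at these low levels. Without SNI 3d mouse 3 the change at SNI 3d was 0.27 on the log2 scale, and without naive mouse 6 that at SNI 1d was 3.10 and DE (adjusted p = 0.0932). After SCI, Srebf1 measured 1.73 to 4.69 CPM at 1d (-0.17) and 1.54 to 14.0 CPM at 3d (0.14).

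Srebf2, the SREBP gene for cholesterol synthesis, was not DE at any time. It measured 6.43 to 35.1 CPM in naive mice, 12.6 to 23.4 at SNI 1d, 8.59 to 24.045 at SNI 3d, 8.55 to 27.7 at SCI 1d and 10.8 to 34.1 at SCI 3d. All groups overlapped naive, and the log2 fold changes were -0.19, -0.20, -0.27 and 0.14, with 95% intervals that reached from -1.35 to 1.25 over the 4 comparisons. Changes of about that size in either direction were not detectable here.

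Scap, the escort of the SREBP proteins, had positive fold changes in all 4 comparisons that were smaller without naive mouse 5. That mouse had 0.176 CPM while the others reached 18.1 CPM, and SCI 1d mice had 27.8, 9.60, 36.0 and 8.86 CPM. The fold changes were 1.47 at SNI 1d (adjusted p = 0.390), 1.32 at SNI 3d (0.475), 1.90 at SCI 1d (SE 0.757, adjusted p = 0.363) and 1.51 at SCI 3d (0.534). Without naive mouse 5 that at SCI 1d was 0.95, and without glia-rich wells it was 0.71 (adjusted p = 0.384).

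Insig1 and Insig2, which encode the 2 retention proteins, were not DE in any comparison. Insig1 measured 89.3, 149.8 and 212 CPM as the naive lowest, median and highest, 112, 174, 77.9 and 27.2 CPM at SNI 1d, 137, 149, 226 and 74.8 at SNI 3d, 226, 82.0, 46.0 and 34.3 at SCI 1d, and 118, 118, 218 and 92.3 at SCI 3d. Of the 4 SCI 1d mice 3 were below the lowest naive mouse, and the change there was -0.64 (adjusted p = 0.701), or -1.21 without glia-rich wells (SE 0.424, adjusted p = 0.224). Insig2 had the narrowest naive range, 50.1 to 83.1 CPM, and measured 56.8 to 82.4 at SNI 1d, 7.73 to 60.2 at SNI 3d, 55.9 to 86.2 at SCI 1d and 60.1 to 163 at SCI 3d. Its extremes, 7.73 and 163 CPM, were the 2 mice with only glia-rich wells.

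Insig2 had no DE call, with log2 fold changes of 0.07, -0.68 (adjusted p = 0.520), 0.16 and 0.62 (0.636) in the order above. Nr1h2, the LXRβ gene, measured 0.982, 16.2 and 29.7 CPM as the naive lowest, median and highest and lay between 14.6 and 20.2 CPM in all 8 SNI mice. It measured 4.31 to 24.2 CPM at SCI 1d and 7.12 to 38.6 CPM at SCI 3d, where its log2 fold change was 0.94 (adjusted p = 0.577). At SNI 1d and 3d the change was 0.47 and 0.52, with 95% intervals from -0.54 to 1.49 and -0.49 to 1.54.

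**Figure D5:**
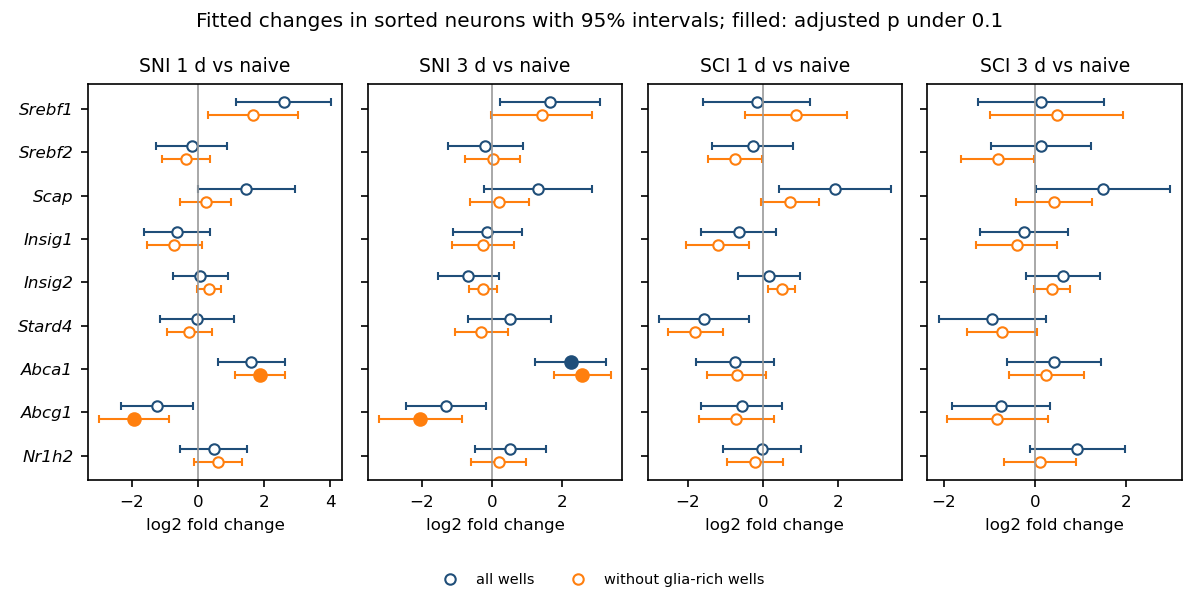
Fitted log2 fold changes of the 9 members in each injured group against naive sorted neurons, with 95% intervals, for all wells and without glia-rich wells; filled points are DE. The filled points are Abca1 at SNI 3d with all wells (2.23) and Abca1 and Abcg1 at both SNI times without glia-rich wells.

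The difference between the injuries was tested directly within each time. With all wells 0 of 23507 genes were DE between SNI and SCI at 1d (0%) or at 3d (0%) by edgeR, where 2380 and 1916 genes had an unadjusted p under 0.05 and DESeq2 called 1097 and 853. Abca1 was 5.15-fold higher in SNI than in SCI at 1d by the fit (log2 fold change 2.36, SE 0.596, unadjusted p = 0.00078, adjusted p = 0.414) and 3.50-fold at 3d (1.81, SE 0.590, adjusted p = 0.608). All 4 SNI mice were above all 4 SCI mice at each time. By DESeq2 the adjusted p was 0.00308 and 0.0563. Beside it, 7 of 8 macrophage markers were positive at 1d (median 6.19, 7 with an unadjusted p under 0.05, 0 DE) and 3 of 8 at 3d (-0.62), and their part was not tested. Without glia-rich wells the 1d difference was 2.57 (SE 0.446, adjusted p = 0.0315), so 1 of 9 members was DE, where 0.796% of genes were, and at 3d it was 2.31 (SE 0.509, adjusted p = 0.425).

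At 1d the groups also did not overlap for Stard4, at 28.8 to 67.8 CPM after SNI and 7.49 to 21.96 CPM after SCI (1.54, SE 0.642, adjusted p = 0.467), nor for Srebf1, at 6.29 to 61.3 and 1.73 to 4.69 CPM (2.76, SE 0.832, adjusted p = 0.439). With Abca1 this made 3 of 9 members, all higher after SNI, where 4.36% of genes did not overlap. Without glia-rich wells Stard4 and Abca1 remained, 2 of 9, where 5.42% of genes did not overlap, and the Stard4 difference was 1.55 (SE 0.388, adjusted p = 0.107). At 3d Abca1 was the 1 of 9 members without overlap, where 1.94% of genes did not overlap. Without glia-rich wells, with 3 mice a group, 3 of 9 members did not overlap at 3d, where 12.3% of genes did not. These were Abca1, Srebf1, at 4.91 to 6.85 CPM after SNI and 2.06 to 4.86 CPM after SCI (0.93, adjusted p = 0.831), and Insig2, at 50.3 to 60.3 and 74.1 to 101.2 CPM (-0.63, SE 0.232, adjusted p = 0.671). With all wells Insig2 at 3d had a lower fitted level after SNI (-1.30, SE 0.497, adjusted p = 0.608), and Abcg1 differed by -0.67 at 1d and -0.57 at 3d, neither DE.

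With all wells the pathway lists held 1 DE gene in the sorted neurons. Hsd17b7, a late enzyme of cholesterol synthesis, rose at SNI 3d, from 66.2 to 248 CPM in naive mice (median 127.6) to 286 to 786 CPM, with no overlap (log2 fold change 2.00, SE 0.452, adjusted p = 0.0880). Of the 20 synthesis enzymes, 19 had negative fold changes at SCI 1d (median -0.71, 7 with an unadjusted p under 0.05, 0 DE by edgeR), beside 42.6% negative and a median of 0.15 over all genes. At SCI 3d 16 of 20 were negative, at SNI 1d 12 of 20 and at SNI 3d 5 of 20. Between SNI and SCI at 1d 20 of 20 were positive (median 0.51, 4 with an unadjusted p under 0.05, 0 DE). Without glia-rich wells 17 of 20 were negative at SCI 1d, and 15 had an unadjusted p under 0.05 by edgeR. Their median was -0.902, beside 0.34 over all genes. There 2 of 20 were DE and lower, where 8 of 22620 genes were DE, 6 higher and 2 lower. At SNI 3d 3 of 20 were DE and higher, where 4.99% of genes were DE, and at SNI 1d and SCI 3d 0 were. Between the injuries at 1d these wells had 2 of 20 DE and higher, where 0.796% of genes were DE. The enzymes of this list are the SREBP2 targets that were lower in whole DRG at SCI 1d, while Srebf2 itself was not DE in either data set.

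With all wells the 10 LXR partners and targets were on the negative side at SNI 1d (10 of 10, median -0.48), SNI 3d (9 of 10, -1.05) and SCI 3d (9 of 10, -1.27). By edgeR 0 were DE in each, and 1, 1 and 2 had an unadjusted p under 0.05. At SCI 1d 6 of 10 were negative (-0.27, 0 DE). Over all genes with all wells 42.9% were negative at SNI 1d, 50.6% at SNI 3d, 42.6% at SCI 1d and 48.7% at SCI 3d. The lean to the negative side was smaller without glia-rich wells. There 7 of the 10 were negative at SNI 1d (median -0.27) and 6 at SNI 3d (-0.155). At SCI 1d 5 were (0.0183) and at SCI 3d 4 (0.00402), with 0 DE in each comparison. The median over all genes was then 0.351, 0.332, 0.34 and 0.256 in the same order. With all wells Abca1, which LXR also controls, was positive at SNI 1d, SNI 3d and SCI 3d, negative at SCI 1d, and DE at SNI 3d. The 10 sterol transfer proteins were 8 of 10 positive at SCI 1d (median 0.20, 0 DE), when Stard4 was at -1.57. With all wells the 11 genes of SREBP processing had medians from -0.52 (SCI 1d) to 0.28 (SCI 3d), and none was DE. Without glia-rich wells 1 of the 11 was DE and higher and 1 DE and lower at SNI 1d, where 6.47% of genes were DE. At SNI 3d 1 of the 11, 1 of the 10 sterol transfer proteins and 1 of the 3 cholesterol ester genes were DE and higher, where 4.99% of genes were DE.

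The genes whose level followed each member most closely are given with Pearson's r of log2(CPM + 1), as a description over mice that share groups, wells and depth. Across the 22 sorted mice Stard4 was most like Sqle (0.862), the squalene epoxidase of cholesterol synthesis, and Ankrd13b (0.858). Srebf1 was most like Kcnj10 (0.884), a potassium channel gene on the list of glial markers, and Foxj3 (0.843). Abca1 was most like Car1 (0.811) and Phlda1 (0.804), and Abcg1 most like Nfia (0.871), a glial transcription factor gene, and Klhl9 (0.868).

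Among the sensors, Srebf2 was most like G2e3 (0.802) and Scarb1 (0.771), the high density lipoprotein receptor gene, Scap most like Fn3k (0.876) and Cfap97 (0.851), Insig1 most like Mtmr2 (0.879) and Hnrnpl (0.863), Insig2 most like Cstf1 (0.905) and Mapk1ip1 (0.9), and Nr1h2 most like Acad9 (0.893) and Tsc22d2 (0.879). Across the 8 whole DRG libraries each coefficient rests on 8 points. Stard4 was most like Lcor (0.971) and Sh2d4a (0.961), Insig1 most like Rgs4 (0.996) and Kctd8 (0.992), Srebf2 most like Ptpre (0.994) and Pitpnm3 (0.99), and Srebf1 most like Sept9 (0.982) and Abcb9 (0.979).

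For the other members in whole DRG these genes were Sdc3 and Disp3 for Scap (both 0.987), Cnep1r1 (0.977) and Gm43800 (0.973) for Insig2, Ephx2 (0.953) and 6030407O03Rik (0.94) for Abca1, Pank4 (0.984) and Rfx5 (0.983) for Abcg1, and Gm37084 (0.989) and Zic4 (0.986) for Nr1h2. Among the members themselves the closest pairs there were Srebf1 with Srebf2 (0.847), Scap with Nr1h2 (0.817) and Srebf1 with Abcg1 (0.814). No gene was named for more than 1 member.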

How the data were processed

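Gene counts for 74 libraries (8 whole DRG, 66 sorted wells of 3 per mouse) were taken as deposited. The authors trimmed reads with cutadapt, aligned them to mm10 (GRCm38) with STAR 2.5.3a and counted reads per gene with HTSeq 0.6.1, and the deposited values are raw counts. Lines without a gene, 33.1 to 66.9% of reads, were left out. Counts normalized by the authors (123 columns over the whole series, among them whole DRG of SNI and DLK knockout mice) were not used here. The authors' own fold changes and p-values were not used either.

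Wells were summed per mouse. Counts were scaled by TMM and tested by edgeR 4.0.16 (R 4.3.3) with Benjamini-Hochberg adjustment over all genes tested, at an adjusted p under 0.1. Genes needed a mean count of 10 in whole DRG, or 20 reads in at least 1 mouse in sorted neurons. In sorted neurons 2 RUVr factors, from residuals centred per gene over all mice, entered the fit of all 22 mice. The biological coefficient of variation was 0.133 in whole DRG and 1.19 in sorted neurons. The standard error was the log2 fold change over the square root of F, and intervals are 1.96 standard errors on each side. The scripts were tested on simulated counts with known changes. Gene names and lengths came from GENCODE vM21, which held 53274 of the 53379 identifiers without their version.

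The 9 members, the pathway and marker lists and the rules were chosen with earlier results of these data known. The text names all members and the 3 genes of each pathway list with the smallest adjusted p in whole DRG. It also names every list gene DE in sorted neurons with all wells, and per member the 2 most correlated genes in each data set. Another 4 DE synthesis enzymes in whole DRG were named after their values were seen, and some genes that the rule selects are not reported here. Glia-rich wells were defined by marker sums and not by the members. Alternatives were DESeq2 1.42.0, its size factors in edgeR, other filters, a replicate block, other RUVr settings, the set of samples (by the form of their titles) as a term, naive mice of the same day, no glia-rich wells, a red blood cell covariate and leaving out each mouse.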

Additional observations from a re-analysis of the deposited data

Results flagged for a closer look

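In groups of 4 to 6 mice, the highest or lowest mouse of a member was marked when its gap to the next, on the log2(CPM + 1) scale, passed Dixon's 95% limit. This marked 9 of 63 group checks, where chance marks about 5%. In uninjured whole DRG, Scap was highest in mouse 1 (96.99 CPM), Insig1 lowest in mouse 3 (171 CPM) and Insig2 lowest in mouse 1 (23.3 CPM). In naive sorted neurons, mouse 5 was lowest for Scap (0.176 CPM) and for Nr1h2 (0.982 CPM). SNI 3d mouse 3, with only glia-rich wells, was highest for Srebf1 (201 CPM) and lowest for Insig2 (7.73 CPM). Mouse 4 was lowest for Abcg1 at SNI 1d (41.5 CPM) and at SCI 1d (119.5 CPM), and both were mice without a glia-rich well.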

How the results depend on the processing

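Of the recomputed member fold changes, 1089 kept their side of the threshold and moved by less than their error, 86 changed sign or size without a call, 14 newly passed the test and 17 no longer did. In whole DRG, where 1 of 9 members and 408 genes were DE, DESeq2 gave 2 members and 929 genes, and the red blood cell covariate 0 members and 23 genes. With a replicate block, 0 members and 127 genes were DE (Stard4 adjusted p = 0.108). Leaving out a mouse gave 0 to 2 members and 104 to 640 genes.

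At SNI 1d (0 members, 122 genes), DESeq2 gave 2 members and 1447 genes, dropping glia-rich wells 2 and 1463, no filter 45 genes, no RUVr factors 0, 1 factor 6, uncentred factors 1, the set term 14, same-day naive mice 322, and leaving out a mouse 0 to 1 members and 15 to 151 genes. At SNI 3d (1 member, 104 genes), no filter gave 0 members and 15 genes, no RUVr factors 0 and 0, 1 factor 0 and 0, uncentred factors 0 and 2, same-day naive mice 0 and 0, dropping glia-rich wells 2 and 1128, DESeq2 2148 genes (964 higher, 1184 lower), a stricter filter 212, and leaving out a mouse 0 to 2 members and 9 to 710 genes. The replicate block gave 4 genes at SNI 1d and 0 members and 5 genes at SNI 3d.

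At SCI 1d (0 members, 11 genes), DESeq2 gave 1084 genes, a stricter filter 2, no RUVr factors, 1 factor and uncentred factors 1 each, the set term 2 and same-day naive mice 5. At SCI 3d (0 members, 12 genes), DESeq2 gave 1111, the set term 1, and no filter, a stricter filter, 0 or 1 factor, uncentred factors, same-day naive mice and dropping glia-rich wells 0 each. The replicate block gave 1 gene at SCI 1d and 0 at SCI 3d. Between SNI and SCI at 1d, DESeq2 gave 2 members and 1097 genes, dropping glia-rich wells 1 and 180, a stricter filter 3 genes, uncentred factors 1, the set term 4 and the replicate block 1, and at 3d DESeq2 gave 1 member and 853 genes. Leaving out a mouse gave 0 members in these 4 comparisons, with 1 to 30 genes at SCI 1d, 0 to 39 at SCI 3d, 0 to 1 between injuries at 1d and 0 to 2 at 3d. The deviations of same-numbered mice correlated at -0.158 to 0.257 (median 0.011) in whole DRG, beside -0.313 to 0.306 (median -0.02) for other pairs. In sorted neurons, with numbers taken within each set, they correlated at -0.025 to 0.414 (median 0.099), beside -0.34 to 0.269 (median -0.039). Whether the numbers pair the mice was not tested, nor was the cause of the changes in these counts. Depth did not limit the members in whole DRG, while in sorted neurons wells with 3 or fewer reads of a member were frequent for Nr1h2 and Scap in glia-rich wells (7 and 6 of 20). For Srebf1, Srebf2 and Stard4 there were 4 of 20 such wells each. Srebf1 also had 3 or fewer reads in 4 of the 46 other wells.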

Other observations

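The 2 exporter genes moved apart after SNI, a contrast that was chosen after the values were seen and is given without a test. The ratio of Abca1 to Abcg1 CPM, which is not scaled for length and serves only to compare groups, had a median of 0.0731 in naive sorted mice (0.0293 to 0.240, n = 6), 0.547 at SNI 1d (0.435 to 1.98, n = 4) and 1.17 at SNI 3d (0.164 to 4.78, n = 4). At SCI 1d it was 0.0880 (0.0180 to 0.159) and at SCI 3d 0.162 (0.0866 to 0.379). The lowest SNI 3d ratio was that of mouse 3, which had only glia-rich wells. Without glia-rich wells naive mice spanned 0.0297 to 0.240, SNI 1d mice 0.612 to 2.22 and SNI 3d mice 0.873 to 8.64, while SCI 1d mice were at 0.0376 to 0.148 and SCI 3d mice at 0.0866 to 0.368. In whole DRG the ratio was 1.40 to 1.68 without injury and 1.61 to 1.79 at SCI 1d. The Abca1 CPM exceeded the Abcg1 CPM in 10 of 17 SNI wells that were not glia-rich, from 6 of 7 mice, in 1 of 12 such naive wells and in 1 of 17 such SCI wells, and in 0 of the 20 glia-rich wells.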
